A study of Homo sapiens with 8 samples.

Results

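The 33 genes described here encode the enzymes of glycolysis, the isoenzymes that feed or control it, and the enzymes that decide the fate of pyruvate, from the hexokinases to the pyruvate dehydrogenase complex and 2 lactate transporters. They were chosen by symbol, and each was read from the probe set naming it alone that had the highest mean log2 signal over the 8 arrays. Of the 33 genes, 31 had such a probe set, out of 19775 genes so named on the array, and 30 were among the 14162 genes tested. The lactate transporters SLC16A1 and SLC16A3 were not analysed here. HK3, a hexokinase of white blood cells, stayed below the minimum signal of 59.98 on all 8 arrays, with 4.08 to 23.1.

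Glycolysis splits 1 glucose molecule into a pair of pyruvate molecules. Hexokinase traps glucose in the cell, phosphofructokinase commits it to the pathway, aldolase cuts the sugar, and the later enzymes recover ATP. Pyruvate is then reduced to lactate by lactate dehydrogenase or enters mitochondria, where pyruvate dehydrogenase, switched off by the PDK kinases, turns it into acetyl-CoA. Most steps have several isoenzymes, and many of their genes are known targets of hypoxia-inducible factors and of MYC. Erythroid cells rely on the pathway heavily, because mature red cells have no mitochondria.

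All arrays were of HEL, a human erythroleukaemia line that carries an activating JAK2 mutation and was grown in RPMI medium with fetal bovine serum. The drug arm comprised 2 arrays of cells treated for 16 h with 0.5 µM CEP701 (lestaurtinib, which blocks the kinases JAK2 and FLT3) and 2 of cells treated for 16 h with the vehicle DMSO. The shRNA arm comprised 2 arrays of a stable line carrying a lentiviral pLKO shRNA to PRMT5, a protein arginine methyltransferase that acts on histones and splicing proteins, and 2 of a line carrying a scramble shRNA. The knockdown rests on 1 shRNA sequence, and no source used here says that replicates were separate cultures, so p-values may measure technical spread alone.

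The target was checked first. PRMT5 had signals of 664 and 315 in PRMT5 shRNA cells, against 1794 and 984 in scramble cells. Its log2 difference was -1.52 (SE 0.35), with an adjusted p of 0.217 in the limma fit of all 4 groups and of 8.91e-05 when the pair of arrays sharing a title suffix was added as a replicate block. The PRMT5 shRNA arrays were lower than the scramble arrays in both pairs. In the drug arm PRMT5 had signals of 3023 and 2750.1 in CEP701 cells, against 3419 and 3221 in DMSO cells (log2 difference -0.20, adjusted p = 0.766).

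All 5 annotated erythroid markers and all 5 megakaryocyte markers exceeded the minimum signal on all 8 arrays. The erythroid sum was 21563.5 to 25840.8 in the drug arm and 11859.5 to 14589.5 in the shRNA arm. Within it HBE1 read 9433 to 11721 and 298 to 786. The megakaryocyte sum was 11458 to 11797 in the drug arm and 29622 to 63979 in the shRNA arm. Within it PF4 read 1054 to 1980 and 21810 to 45436. Of the other erythroid markers, KLF1 and TAL1 overlapped between the arms and GATA1 was lower in the shRNA arm. EPOR went the other way, with 205 to 540 in the drug arm and 541 to 723 in the shRNA arm. Of the other megakaryocyte markers, ITGA2B, GP1BA and GP9 overlapped and ITGB3 was higher in the shRNA arm. These 2 sums thus differ mostly through HBE1 and PF4. The summed signal of the 3 epithelial markers (EPCAM, CDH1, KRT19) was 2592 to 5883 on the 4 shRNA-arm arrays and 35.1 to 71.5 on the 4 drug-arm arrays, where none of the 3 exceeded the minimum. The summed signal of 4 monocyte markers was 7139.5 to 11343 in the shRNA arm and 127 to 276 in the drug arm, and CD14 and CD163 exceeded the minimum in the shRNA arm alone. The 2 arms therefore differ in these marker sums as well as in treatment, and each treatment was compared with the control of its own arm. Fewer cells of a type and less RNA per cell cannot be told apart in such bulk samples.

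**Figure D1:**
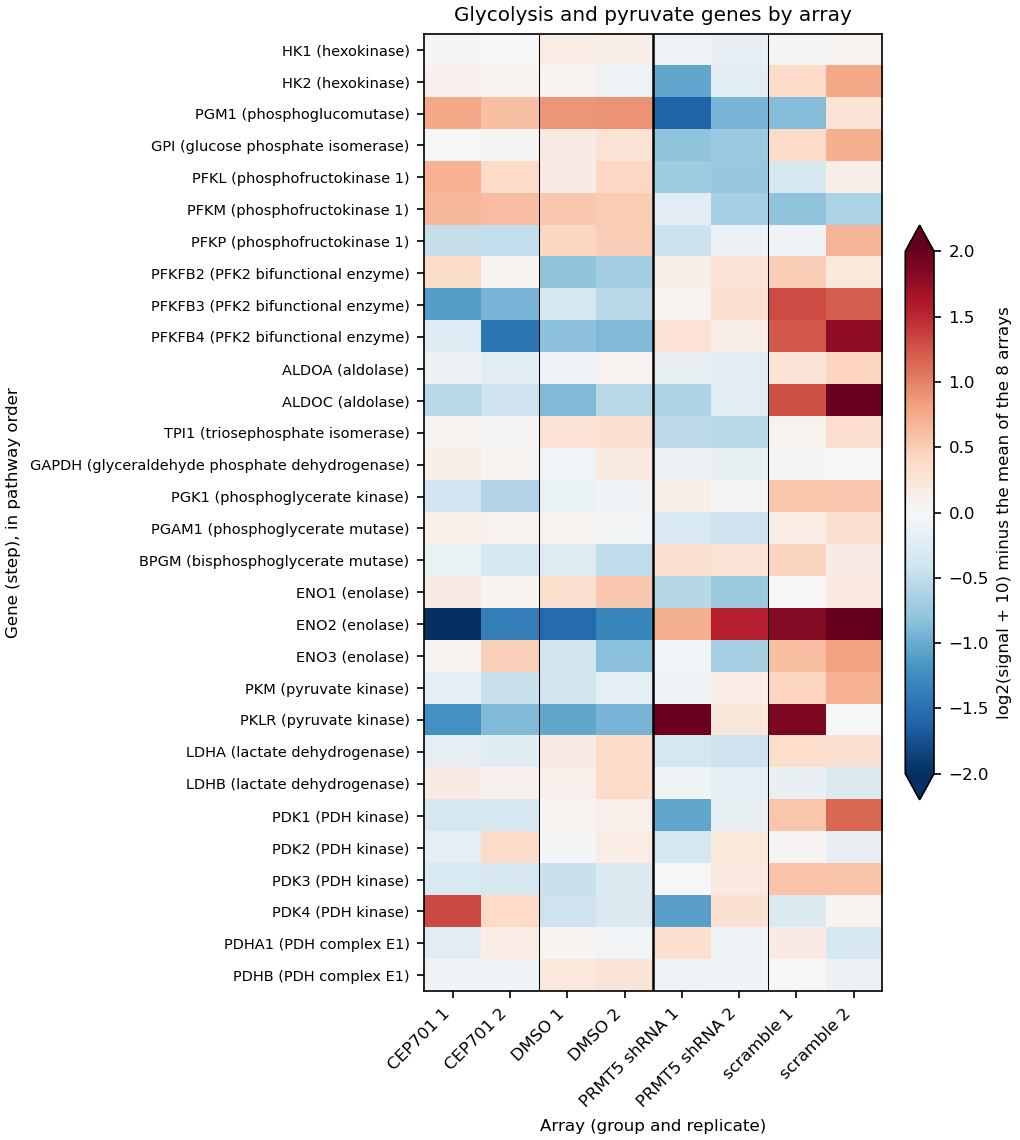
Signal of the 30 tested genes on each of the 8 arrays, as log2(signal + 10) minus the gene's mean over the arrays. Columns are arrays and rows are genes in pathway order; red is above and blue below the gene's own mean, and the scale ends at 2 in either direction. ALDOC and ENO2 are highest on the scramble arrays, and PFKFB3 is lowest on the CEP701 arrays.

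With PRMT5 shRNA against scramble, 2 of the 30 genes passed the test, and both were lower: ALDOC, the aldolase isoenzyme of brain, and GPI, which turns glucose 6-phosphate into fructose 6-phosphate. No gene of the 30 was called higher by limma, and 0 were higher at an unadjusted p under 0.05, where 2.39% of all genes were, against 19 lower, where 4.31% were. Over all genes 0.148% were called, 0.141% lower and 0.00706% higher. With the replicate block, 14 of the 30 were called lower and 0 higher, where 1.43% of all genes were called lower, 0.318% higher and 1.74% either. They were ALDOC, GPI, PDK1, HK2, PFKFB3, PGM1, ENO1, TPI1, LDHA, PGAM1, PFKP, PKM, ALDOA and PGK1.

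Entry into the pathway was read from the hexokinases and from the sugar phosphate isomerases. HK2, the inducible hexokinase bound to mitochondria, had signals of 1881 and 3335 in PRMT5 shRNA cells, against 5080.4 and 6613 in scramble cells, and its log2 difference of -1.21 passed with the block alone (adjusted p = 0.000507, against 0.170 without it). A second HK2 probe set differed the other way, with 222 and 214 in PRMT5 shRNA cells, against 143 and 104 in scramble cells. HK1, the constitutive hexokinase, had a log2 difference of -0.14 (SE 0.13), and whether the 2 isoenzymes differ in response was not tested.

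GPI had signals of 3029 and 3169 in PRMT5 shRNA cells, against 6952 and 8677 in scramble cells. Both PRMT5 shRNA arrays were below both scramble arrays and also below all 4 drug-arm arrays, which read 5365 to 6410. The log2 difference was -1.32 (SE 0.14, adjusted p = 0.0136), a 2.50-fold lower level on the scale of signal plus 10. PGM1, which links glycogen and glucose 6-phosphate, had signals of 1175 and 1885 in PRMT5 shRNA cells, against 1973 and 4343 in scramble cells (log2 difference -0.97, adjusted p = 0.578, and 0.00273 with the block). All 4 of these arrays were below the drug-arm arrays.

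At the committed step, the platelet-type subunit PFKP had signals of 3458 and 4298 in PRMT5 shRNA cells, against 4434 and 7459 in scramble cells. Its log2 difference of -0.58 passed with the block (adjusted p = 0.0321, against 0.688 without it), and the groups did not overlap. The liver-type subunit PFKL read -0.63 on the log2 scale, with an adjusted p of 0.0989 even with the block. The muscle-type subunit PFKM had signals of 1129 and 828 in PRMT5 shRNA cells, against 749.7 and 854 in scramble cells, and its log2 difference of 0.27 lay on the other side of 0 and did not pass (adjusted p = 0.853).

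The bifunctional PFKFB enzymes make and break down the fructose bisphosphate that activates phosphofructokinase. PFKFB3, the isoenzyme of growing cells whose kinase activity far exceeds its phosphatase activity, had signals of 1450.2 and 1737 in PRMT5 shRNA cells, against 3429.5 and 3219.9 in scramble cells. The groups did not overlap, and its log2 difference was -1.06, with an adjusted p of 0.0704 without and 0.00363 with the block. PFKFB4 had signals of 1256 and 1124 in PRMT5 shRNA cells, against 2401 and 3525 in scramble cells, and its log2 difference of -1.29 did not pass either way (adjusted p = 0.368 and 0.0708 with the block). PFKFB2, the isoenzyme of heart, had signals of 448 and 503 in PRMT5 shRNA cells, against 587 and 480.4 in scramble cells, and the groups overlapped.

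ALDOC had signals of 640.1 and 838 in PRMT5 shRNA cells, against 2397 and 3917 in scramble cells. The PRMT5 shRNA arrays overlapped those of the drug arm, which read 526 to 735, and the 2 scramble arrays stood above all others. The log2 difference was -2.05 (SE 0.25, adjusted p = 0.0213), a 4.14-fold lower level. ALDOA, the aldolase of muscle and red cells, had signals of 23963 and 22939 in PRMT5 shRNA cells, against 31572 and 35558 in scramble cells (log2 difference -0.51, passing with the block alone at an adjusted p of 0.0300), and all 3 of its probe sets were lower. The ALDOC and GPI calls were lost without either CEP701 array, either DMSO array, PRMT5 shRNA array 1 or scramble array 2, with adjusted p up to 0.107 for ALDOC and 0.100 for GPI. Without PRMT5 shRNA array 2 the count was 4, with HK2 and PDK1 added (adjusted p = 0.0211 and 0.0274). In the fit of the shRNA arm alone, 0 of the 30 genes passed in limma.

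**Figure D2:**
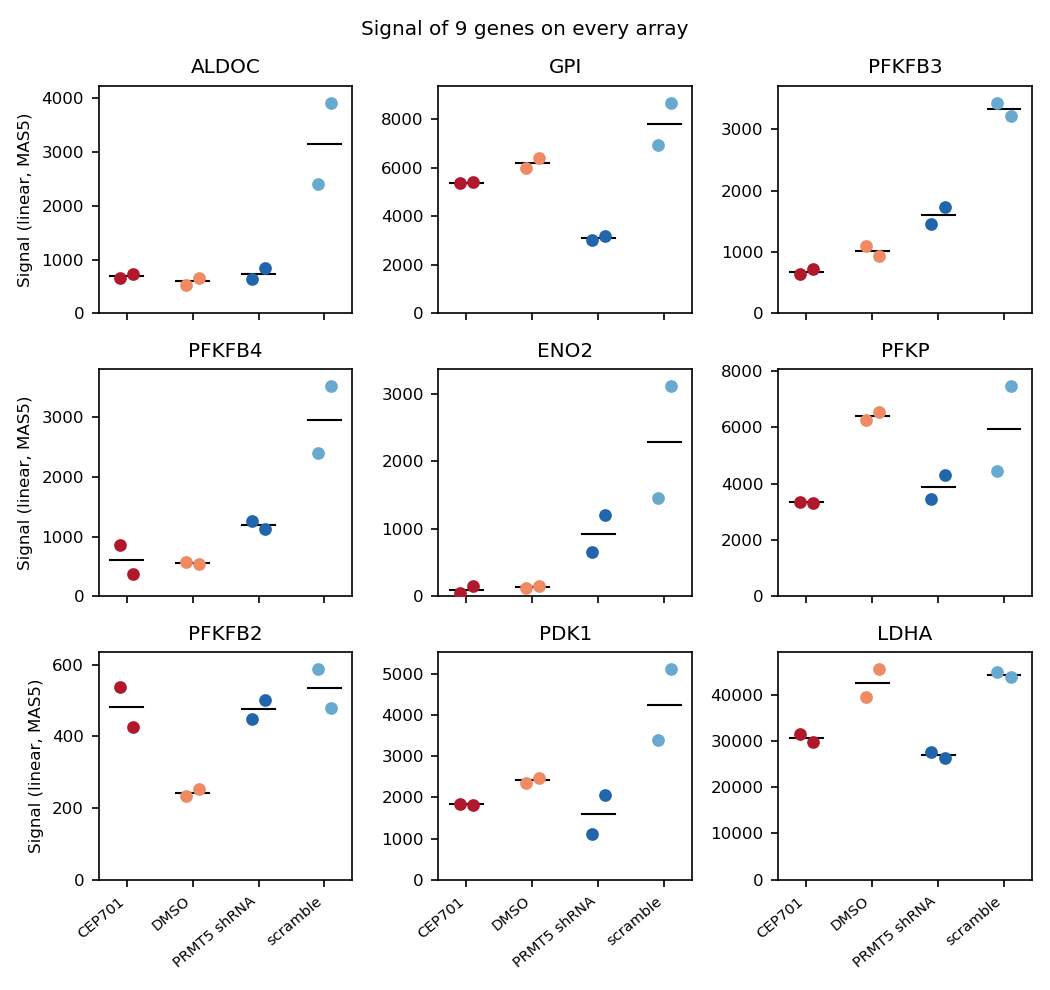
Linear signal of 9 genes on every array, by group. Each point is 1 array and the line is the group mean (n = 2); each panel starts at 0 and has its own scale. GPI and LDHA are lowest with PRMT5 shRNA, ALDOC is high in scramble cells alone, and PFKP and PFKFB2 passed with CEP701 against DMSO. ALDOC, GPI, PFKFB3, PDK1 and LDHA also separate CEP701 from DMSO but did not pass without the block.

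In the lower part of the pathway, TPI1, which interconverts the 2 triose phosphates, had signals of 14389 and 13970.2 in PRMT5 shRNA cells, against 21630.2 and 26137 in scramble cells, with a log2 difference of -0.75 (adjusted p = 0.0865, and 0.00363 with the block). ENO1, the main enolase, had signals of 16179.7 and 14332 in PRMT5 shRNA cells, against 24062 and 27464 in scramble cells, with a log2 difference of -0.76 (adjusted p = 0.102, and 0.00799 with the block). For both, the groups did not overlap, and all 3 probe sets of each gene were lower in PRMT5 shRNA cells.

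PGK1, which makes the first ATP of the pathway, had signals of 23814 and 21724 in PRMT5 shRNA cells, against 32377 and 32076 in scramble cells, and all 5 of its probe sets were lower with PRMT5 shRNA. PGAM1, the phosphoglycerate mutase of most tissues, had signals of 13392 and 12432 in PRMT5 shRNA cells, against 18341 and 20924 in scramble cells. PKM, the pyruvate kinase of growing tissue, had signals of 3234 and 3879 in PRMT5 shRNA cells, against 4689.6 and 5681 in scramble cells. Their log2 differences of -0.50, -0.60 and -0.54 passed with the block (adjusted p = 0.0333, 0.0130 and 0.0427) and not without it.

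The enolases of narrower range were more spread. ENO2, the neuronal enolase, had signals of 660.5 and 1199.6 in PRMT5 shRNA cells, against 1459 and 3118 in scramble cells, and its log2 difference of -1.25 did not pass with or without the block (adjusted p = 0.688, and 0.128 with it). ENO3, the muscle enolase, had signals of 152 and 96.1 in PRMT5 shRNA cells, against 247 and 285 in scramble cells (log2 difference -1.07, adjusted p = 0.495), while its second probe set gave 62.5 and 82.0 in PRMT5 shRNA cells, against 50.6 and 21.2 in scramble cells.

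GAPDH, often used as a reference gene, had a log2 difference of -0.12 (SE 0.12), read from its 3′ control probe set. All 6 of its probe sets were lower with PRMT5 shRNA, from -0.059 to -0.32 for the 5′ control probe set. BPGM, which makes the bisphosphoglycerate of red cells that loosens oxygen from haemoglobin, had signals of 431 and 412 in PRMT5 shRNA cells, against 465 and 380.0 in scramble cells, and its log2 difference was 0.0041 (SE 0.23). PKLR, the pyruvate kinase of red cells and liver, had signals of 877 and 257 in PRMT5 shRNA cells, against 819 and 220.3 in scramble cells: array 1 of each group was high and array 2 low, and the pair-matched differences were 0.098 and 0.21 on the log2 scale.

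At the fate of pyruvate, LDHA, the lactate dehydrogenase subunit of anaerobic tissue, had signals of 27598 and 26389.5 in PRMT5 shRNA cells, against 44949 and 43778 in scramble cells. The groups did not overlap, and the log2 difference was -0.72 (SE 0.12, adjusted p = 0.0795, and 0.00451 with the block). LDHB, the subunit of heart, had signals of 38828 and 35695 in PRMT5 shRNA cells, against 37011 and 33502 in scramble cells. Its log2 difference was 0.080, with a 95% interval of -0.22 to 0.38, and the groups overlapped.

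PDK1, the pyruvate dehydrogenase kinase best known as a hypoxia target, had signals of 1118 and 2065 in PRMT5 shRNA cells, against 3386 and 5117 in scramble cells, with a log2 difference of -1.45 (adjusted p = 0.139, and 7.26e-05 with the block); all 3 of its probe sets were lower. PDK3 had signals of 1308 and 1493 in PRMT5 shRNA cells, against 1939 and 1932 in scramble cells (log2 difference -0.47, adjusted p with the block 0.110). PDK2 and PDK4 differed by 0.0092 and -0.27, and PDHA1 and PDHB, the subunits of the first enzyme of the pyruvate dehydrogenase complex, by 0.19 and -0.030, none of which passed.

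Over the 30 genes the median log2 difference with PRMT5 shRNA was -0.56, against 0.0034 over all genes tested. By part of the pathway it was -0.80 for the 12 genes from hexokinase to aldolase, -0.57 for the 10 from triose phosphate to pyruvate, and -0.15 for the 8 at the fate of pyruvate. The PRMT5 shRNA arrays were both below the scramble arrays for 21 of the 30 genes, where 16.1% of all genes were so, and both above them for 0, where 14.1% were. Each gene's log2 level was also taken relative to its mean over the 8 arrays. Averaged over the genes, this deviation was 0.346 and 0.493 on the scramble arrays and -0.214 and -0.129 on the PRMT5 shRNA arrays. It was -0.132 and -0.159 on the CEP701 arrays, against -0.131 and -0.074 on the DMSO arrays. By this mean the scramble arrays stood above all others. Whether the lower median reflects the knockdown or a high scramble control was not tested.

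The shRNA arrays share a title suffix in pairs, which allowed a comparison within each pair. The median difference was -0.49 in pair 1, with 26 of 30 genes lower, where 49.6% of all genes were. It was -0.68 in pair 2, with 22 genes lower, where 49.7% of all genes were. In both pairs 21 genes were lower, where 29.4% of all genes were, 3 were higher and 6 were split. The split genes were PFKM, PFKFB2, BPGM, PDK2, PDK4 and PDHB.

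**Figure D3:**
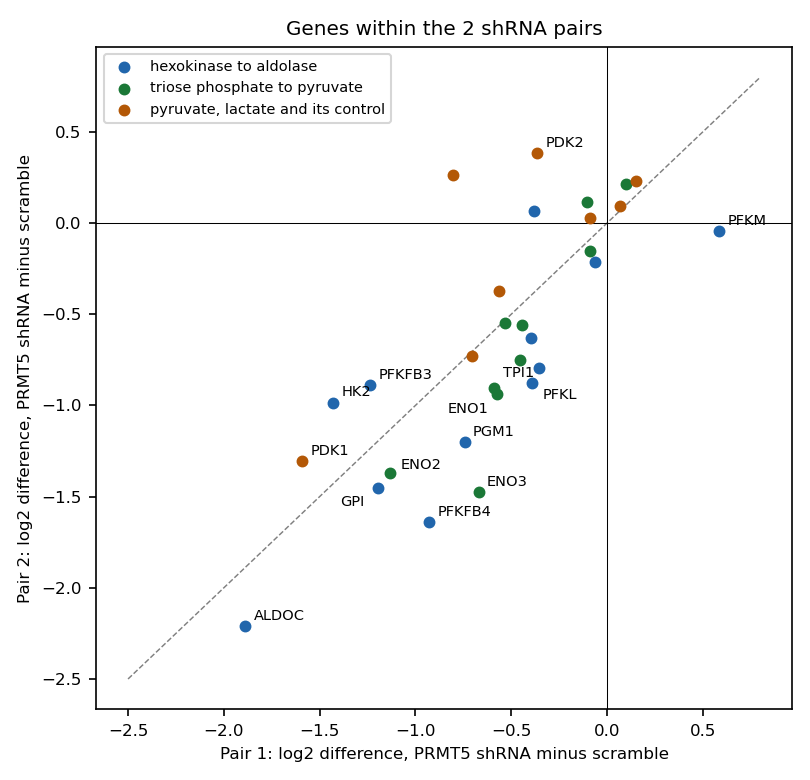
Log2 difference of each of the 30 genes, PRMT5 shRNA minus scramble, in pair 1 (horizontal) and pair 2 (vertical). Colours mark the part of the pathway and the dashed line marks equal differences. In the lower left quadrant lie 21 genes, with ALDOC farthest at -1.89 in pair 1 and -2.21 in pair 2.

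The ratio of 5′ to 3′ GAPDH control signals, a measure of RNA or labelling quality, was 0.729 and 0.778 in PRMT5 shRNA cells, against 0.846 and 0.883 in scramble cells. The same ratio for actin was 0.187 and 0.335 in PRMT5 shRNA cells, against 0.141 and 0.179 in scramble cells. Both ratios separated the groups, in opposite directions, and their part in the differences was not tested. Of the marker sums, that of 4 fibroblast markers was 375 and 404 in PRMT5 shRNA cells, against 350.5 and 342 in scramble cells, and was higher on both arrays. Each of the 4 markers alone (COL1A1, COL1A2, COL3A1, DCN) overlapped between the groups. Only COL1A1 was above the minimum signal on all 8 arrays, and COL3A1 was above it on 0. The megakaryocyte sum overlapped between the groups but was lower with PRMT5 shRNA within both title-suffix pairs, at 29622 in PRMT5 shRNA cells, against 34992 in scramble cells, in pair 1 and 46844 in PRMT5 shRNA cells, against 63979 in scramble cells, in pair 2. Each of its 5 markers (ITGA2B, GP1BA, PF4, ITGB3, GP9) was lower in both pairs, as were 21 of the 30 glycolysis and pyruvate genes. The erythroid, monocyte, epithelial, T cell and B cell sums differed in opposite directions in the 2 pairs. The part of the marker genes in the differences was not tested.

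The promoters of the genes were searched for the core letters read by hypoxia-inducible factors, ACGTG and GCGTG, on both strands of the 250 bases before the RefSeq start (GRCh38.p14). The letters ACGTG also lie inside CACGTG, which MYC and its relatives read. Of 31 genes with a window, 12 held ACGTG (38.7%), 11 held GCGTG (35.5%) and 18 held either (58.1%), against 18.7%, 31.9% and 43.1% of 27305 promoters. The median GC content was 68.4% for these genes, against 58.0% for all promoters. The stretches below, 60 bases each and 5′ to 3′ on the gene's strand, show 5 genes called lower with the block and 1 that was not, PDHB, with matches on either strand in capitals.
ALDOC, minus strand, chr17:28576908-28576967: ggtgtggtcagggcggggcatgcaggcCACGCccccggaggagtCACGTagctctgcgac
GPI, plus strand, chr19:34364802-34364861: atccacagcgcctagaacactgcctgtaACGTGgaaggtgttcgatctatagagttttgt
HK2, plus strand, chr2:74834045-74834104: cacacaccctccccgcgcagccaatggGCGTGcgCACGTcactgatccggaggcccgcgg
PGK1, plus strand, chrX:78104023-78104082: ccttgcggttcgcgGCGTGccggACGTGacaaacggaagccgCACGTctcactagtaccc
LDHA, plus strand, chr11:18394455-18394514: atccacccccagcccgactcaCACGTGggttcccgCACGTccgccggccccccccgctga
PDHB, minus strand, chr3:58434016-58434075: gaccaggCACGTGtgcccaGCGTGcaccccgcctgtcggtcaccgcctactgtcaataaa

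ALDOC and LDHA each held 5 matches in the whole window, HK2 and PGK1 held 3, GPI held 1, and PDHB held 6. Matches on the 2 strands were counted apart, so 1 CACGTG gives 2 overlapping matches, as in the LDHA and PDHB stretches. PDHB differed by -0.030 on the log2 scale, and PDK1, with -1.45, held none in its window, which had a GC content of 35.6%. The search used 1 start per gene, and whether it is the start in use in these cells was not tested. Of the 14 genes called lower with the block 8 held a match, and of the 15 other tested genes with a window 10 did.

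Neighbouring pathways gave few calls with PRMT5 shRNA in limma. Over all genes 0.148% were called, so 0 calls in lists this short is near the background. At an unadjusted p under 0.05, 2.39% of all genes were higher and 4.31% lower, and with the block 1.43% were called lower. Of 11 further glycolytic isoenzymes and side enzymes 0 passed, with 0 at an unadjusted p under 0.05. Of 17 other genes of pyruvate fate 0 passed, with 1 higher unadjusted, and of 7 pentose phosphate genes 0 passed, with 1 higher and 1 lower unadjusted. Of 9 genes of gluconeogenesis and glycogen 0 passed, with 1 lower unadjusted; with the block GBE1, the glycogen branching enzyme, was lower (-0.88). Their median log2 differences were 0.049, 0.12, 0.16 and -0.010.

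Among 22 tested genes of the hypoxia-inducible factor pathway and its known targets, 3 fell: AK4, a mitochondrial adenylate kinase (-2.56, adjusted p = 0.00329), BNIP3, which takes part in the removal of mitochondria (-2.11, adjusted p = 0.0136), and the collagen-modifying hydroxylase P4HA1 (-1.89, adjusted p = 0.0136). Over all genes 0.141% were called lower without the block. With the block 15 were lower, where 1.43% of all genes were, and 1 was higher, where 0.318% were. The higher one was MYC, counted in this list as a transcription factor that shares target genes with the pathway (0.53, adjusted p = 0.855, and 0.0427 with the block). The median over the list was -1.07.

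With CEP701 against DMSO, 2 of the 30 genes passed: PFKP was lower and PFKFB2 higher. Over all genes 5.78% passed, 3.74% higher and 2.04% lower, so 1 in each direction among 30 is near the background. With each array scaled to the same median the split over all genes was 315 higher and 559 lower, and with poly-A control scaling 82 and 886, against 530 and 289 as deposited. Among the 30 genes 0 were higher and 3 lower with median scaling, 0 and 5 with poly-A control scaling, and 0 and 1 with quantile normalization in limma, and the PFKFB2 call was lost under each of them (adjusted p = 0.0706, 0.352 and 0.0903). The PFKP call was lost with quantile normalization (adjusted p = 0.0906). The median log2 difference was -0.056, against 0.099 over all genes. Median scaling moved these to -0.22 and -0.062, and poly-A control scaling to -0.54 and -0.38. Relative to all genes the median of the 30 was -0.16 as deposited, with median scaling and with poly-A control scaling. It was -0.13 with quantile normalization. The CEP701 arrays were both below the DMSO arrays for 12 genes, where 25.7% of all genes were, and both above for 6, where 36.3% were.

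PFKP had signals of 3360.1 and 3319.6 in CEP701 cells, against 6267 and 6532 in DMSO cells. The groups did not overlap, and the log2 difference was -0.94 (SE 0.22, adjusted p = 0.0447), a 1.91-fold lower level. PFKFB2 had signals of 538 and 426 in CEP701 cells, against 233 and 252 in DMSO cells (log2 difference 0.95, SE 0.22, adjusted p = 0.0410). Its other probe set above the minimum differed the other way, with 76.5 and 88.6 in CEP701 cells, against 130 and 116 in DMSO cells, so the direction for PFKFB2 depends on the probe set. Both calls were lost without any 1 of the 4 drug-arm arrays, with adjusted p up to 0.242 for PFKP and 0.217 for PFKFB2.

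Of the other regulators, PFKFB3 had signals of 641 and 719 in CEP701 cells, against 1093 and 933 in DMSO cells, with no overlap and a log2 difference of -0.57 (adjusted p = 0.0814). PFKFB4 had signals of 857 and 368 in CEP701 cells, against 577 and 548 in DMSO cells, with the 2 CEP701 arrays on either side of DMSO. PFKM had signals of 2107 and 2047 in CEP701 cells, against 1934 and 1882 in DMSO cells, with both CEP701 arrays above. PFKM and PFKL differed by 0.12 and 0.26 on the log2 scale, and neither passed. The PFKL groups overlapped, while a second PFKL probe set was higher on both CEP701 arrays, by 0.48.

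None of the first steps passed. The hexokinase HK2 had signals of 4126 and 4107 in CEP701 cells, against 4057 and 3625 in DMSO cells. GPI had signals of 5365 and 5396 in CEP701 cells, against 5985 and 6409.7 in DMSO cells, and PGM1 was also lower on both arrays, with 6066 and 5441 in CEP701 cells, against 6611 and 6678 in DMSO cells. The log2 differences were 0.10 for HK2, -0.20 for GPI, -0.21 for PGM1 and -0.17 for HK1. Of the aldolases, ALDOA had signals of 24518 and 22930.2 in CEP701 cells, against 25097 and 27677 in DMSO cells, with both CEP701 arrays below. ALDOC had signals of 663 and 735 in CEP701 cells, against 526 and 662 in DMSO cells, with both CEP701 arrays above by a small margin and a log2 difference of 0.24 (adjusted p = 0.608).

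In the lower part, TPI1 had signals of 21110.2 and 20838 in CEP701 cells, against 25254 and 25656 in DMSO cells. PGK1 had signals of 17000.5 and 14541 in CEP701 cells, against 20153 and 21049 in DMSO cells. ENO1 had signals of 26939 and 24547 in CEP701 cells, against 30384 and 34826 in DMSO cells. In all 3 the CEP701 arrays were below the DMSO arrays, and the log2 differences of -0.28, -0.39 and -0.34 did not pass (adjusted p = 0.217, 0.0982 and 0.167). PGAM1 had signals of 17653 and 17227 in CEP701 cells, against 17308 and 16280.4 in DMSO cells, with overlapping groups and a log2 difference of 0.055. The pyruvate kinase PKM had signals of 3042 and 2571 in CEP701 cells, against 2710.0 and 3078 in DMSO cells, also overlapping (log2 difference -0.046).

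ENO2 had signals of 49.0 and 149 in CEP701 cells, against 131 and 156 in DMSO cells, with overlapping groups and a log2 difference of -0.66. ENO3 had signals of 162 and 226 in CEP701 cells, against 121 and 84.5 in DMSO cells. ENO3 was higher on both CEP701 arrays, by 0.86 on the log2 scale (adjusted p = 0.161). The mutase BPGM had signals of 308 and 264 in CEP701 cells, against 282 and 235 in DMSO cells, and the groups overlapped. PKLR had signals of 88.6 and 113 in CEP701 cells, against 101 and 109.9 in DMSO cells, and the groups overlapped. A second PKLR probe set did not overlap, with 81.2 and 82.0 in CEP701 cells, against 4.76 and 20.3 in DMSO cells. Both of these DMSO values lie below the minimum signal, and the reading for PKLR depends on the probe set. GAPDH differed by 0.017.

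LDHA had signals of 31590.3 and 29845 in CEP701 cells, against 39434 and 45527 in DMSO cells, and its log2 difference of -0.46 narrowly missed the threshold (adjusted p = 0.0551). LDHB had signals of 46140.0 and 43509 in CEP701 cells, against 43887 and 53639.7 in DMSO cells, with overlapping groups. PDK1 had signals of 1836 and 1824 in CEP701 cells, against 2358 and 2470.1 in DMSO cells (log2 difference -0.40, adjusted p = 0.422). PDK3 had signals of 1049 and 1021 in CEP701 cells, against 951 and 1074 in DMSO cells, and the groups overlapped. PDK4 had signals of 157 and 78.3 in CEP701 cells, against 40.2 and 44.6 in DMSO cells, where both DMSO values lie below the minimum signal and the gene was tested because both CEP701 arrays exceed it. Its log2 difference of 1.21 did not pass (adjusted p = 0.232). PDK2, PDHA1 and PDHB differed by 0.038, -0.026 and -0.32.

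With the block in the shRNA arm, 7 of the 30 genes passed with CEP701: PFKFB2 higher, and PFKP, PFKFB3, LDHA, PDK1, PGK1 and PDHB lower. Of all genes 22.3% passed in that fit, 12.6% higher and 9.71% lower. The erythroid marker sum was 25841 and 24442 in CEP701 cells, against 21564 and 23107 in DMSO cells, and the actin 5′ to 3′ ratio was 0.116 and 0.161 in CEP701 cells, against 0.199 and 0.198 in DMSO cells. The megakaryocyte sum was also higher on both CEP701 arrays, where ITGA2B and GP9 were higher and GP1BA, PF4 and ITGB3 lower. The T cell sum was higher too, mostly through CD2, at 1234 and 1205 in CEP701 cells, against 854 and 983 in DMSO cells. The monocyte sum was 263 and 276 in CEP701 cells, against 127 and 166 in DMSO cells. The fibroblast sum was lower on both CEP701 arrays. The part of these values in the differences was not tested.

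In the neighbouring lists with CEP701, ACLY, which makes cytosolic acetyl-CoA, fell (-0.53, adjusted p = 0.0403), 1 of 17 genes of pyruvate fate. RPE, a pentose phosphate epimerase, fell (-0.84, adjusted p = 0.0136), 1 of 7. Over all genes 5.78% passed with CEP701, 3.74% higher and 2.04% lower, so 1 call in so small a list is no trait of the list. At an unadjusted p under 0.05, 1307 of all 14162 genes were lower. Of 11 further glycolytic genes and 9 of gluconeogenesis and glycogen 0 passed in limma, with 2 and 1 lower at an unadjusted p under 0.05. Of 22 hypoxia pathway genes 4 rose, NDRG1 (1.60), TXNIP (1.05), the glucose transporter SLC2A1 (1.03) and BNIP3L (0.88), and 2 fell, VEGFA (-1.55) and AK4 (-1.36).

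**Figure D4:**
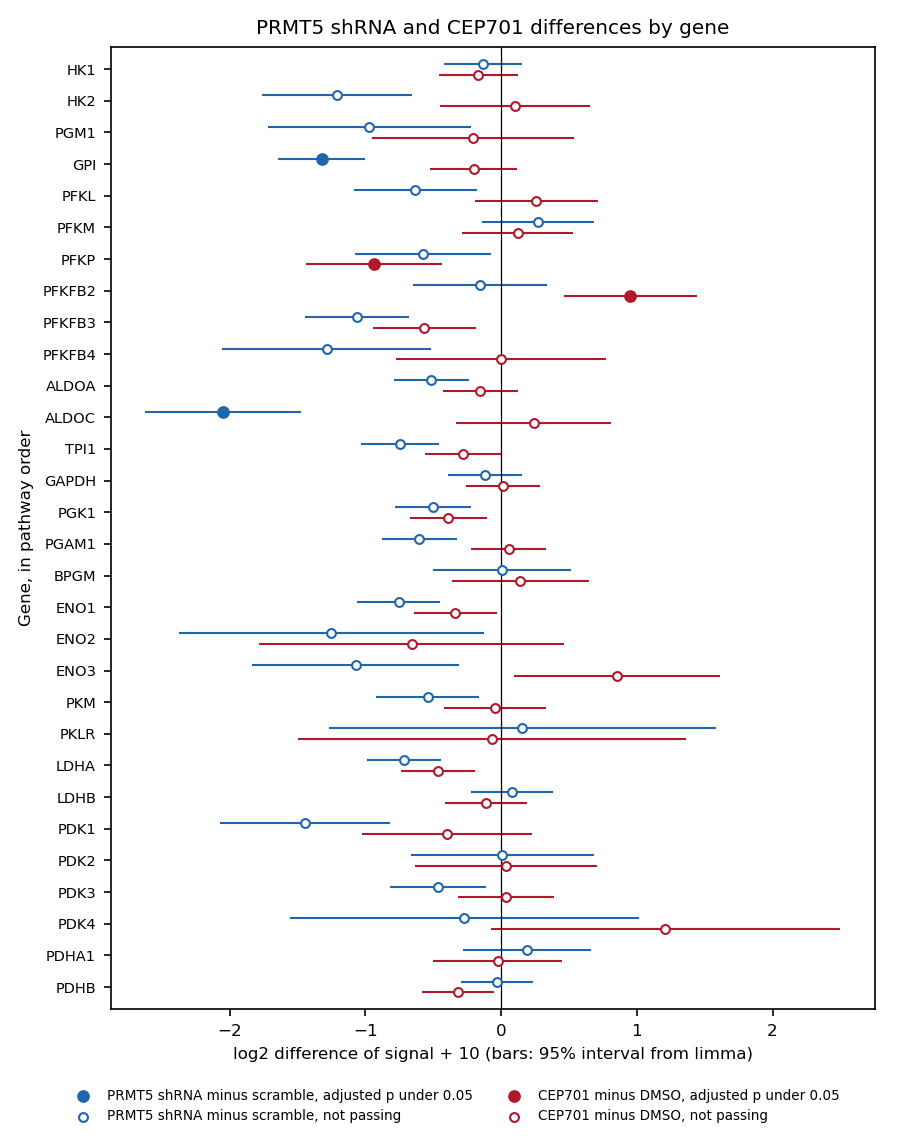
Log2 difference of signal + 10 for the 30 genes, PRMT5 shRNA minus scramble in blue and CEP701 minus DMSO in red, with 95% intervals from limma (n = 2 arrays per group). Filled points passed an adjusted p of 0.05: ALDOC and GPI with PRMT5 shRNA, and PFKP and PFKFB2 with CEP701.

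The 2 treatments were compared through the difference of their effects, CEP701 effect minus PRMT5 shRNA effect, which share no arrays. It passed for ALDOC (2.29, SE 0.36, adjusted p = 0.0252) and GPI (1.12, SE 0.20, adjusted p = 0.0354), both positive, 2 of 30, where 1.11% of all genes were positive, 0.325% negative and 1.43% either. CEP701 log2 differences were 0.24 for ALDOC and -0.20 for GPI, against -2.05 and -1.32 with PRMT5 shRNA. The ALDOC call was lost without either CEP701 array, either DMSO array or PRMT5 shRNA array 1 (adjusted p up to 0.154), and the GPI call without these or scramble array 2 (up to 0.179).

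The difference did not pass for PFKP (-0.36, adjusted p = 0.563) or PFKFB2 (1.11, adjusted p = 0.105), so their CEP701 calls were not shown to be particular to the drug. With the block 10 genes passed, all positive: ALDOC, GPI, HK2, PGM1, PFKL, PFKFB2, TPI1, PGAM1, ENO3 and PDK1. Of all genes 17.3% passed in that fit, 9.4% positive and 7.94% negative. By sign, 15 genes were lower in both comparisons, 3 higher in both, 9 higher with CEP701 and lower with PRMT5 shRNA, and 3 the reverse. LDHA is among those lower in both, with log2 differences of -0.46 with CEP701 and -0.72 with PRMT5 shRNA. Some of the signs rest on differences near 0, such as -0.0010 for PFKFB4 with CEP701, and 0.0041 for BPGM and 0.0092 for PDK2 with PRMT5 shRNA. Of all 14162 genes, 8224 were higher with CEP701 and 7157 with PRMT5 shRNA. The share of all genes with each joint pattern was not computed.

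The controls of the 2 arms also differed. With scramble against DMSO, 16 of the 30 genes passed, 13 higher and 3 lower, where 45.8% of all genes passed, 25.5% higher and 20.3% lower. With median scaling the split was 8 higher and 9 lower, and with poly-A control scaling 4 higher and 6 lower. Over all genes it was 3608 higher and 2878 lower as deposited, 2453 and 4403 with median scaling, and 2036 and 3644 with poly-A control scaling. Arm, vector, virus and culture cannot be told apart in this comparison. The erythroid, megakaryocyte, epithelial and monocyte marker sums given above also differ between the arms, and their part in the calls was not tested. Both scramble arrays were above both DMSO arrays for 17 genes, where 40.8% of all genes were, and below them for 7, where 33.2% were. The comparison shares its scramble arrays with the knockdown comparison and its DMSO arrays with the drug comparison.

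ENO2 was 14.0-fold higher, with 1459 and 3118 in scramble cells, against 131 and 156 in DMSO cells (log2 difference 3.81, adjusted p = 0.000263). ALDOC was 5.12-fold higher, with 2397 and 3917 in scramble cells, against 526 and 662 in DMSO cells (2.36, adjusted p = 8.23e-05). PFKFB4 and PFKFB3 were higher by 2.35 and 1.71 on the log2 scale, PKLR by 1.92, ENO3 by 1.31 and PFKFB2 by 1.10. The other PFKFB2 probe set above the minimum differed the other way (-0.80, with overlapping groups), and the mean of the gene's probe sets gave 0.15 (adjusted p = 0.656).

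The other enzymes called higher differed less: PDK3 was higher by 0.93, PKM by 0.84, PDK1 by 0.78, BPGM by 0.69, PGK1 by 0.65 and ALDOA by 0.35. PFKM was lower (-1.24, adjusted p = 0.000499), as were PGM1 (-1.18) and LDHB (-0.46). A second PDK1 probe set was lower in scramble (-0.67). The calls of ENO2, ALDOC, PFKFB2, PFKFB3, PFKFB4, PDK3, PGK1, PKM and PFKM held without any 1 of the 8 arrays. Those of ALDOA, BPGM, ENO3, LDHB, PDK1, PGM1 and PKLR were lost without at least 1, with adjusted p up to 0.251, and ALDOA turned to -0.0050 with median scaling and -0.059 with poly-A control scaling.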

How the data were processed

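Gene expression was measured on 8 Affymetrix arrays of 54675 probe sets, 2 per group, each from 200 ng of total RNA labelled by 3′ in vitro transcription. The deposited values are linear signal intensities. The authors computed them with the MAS5 method of Affymetrix Expression Console (version not given), per the submitters' processing notes; no genome build is given in the sources used here. Each array had a mean of 500 after trimming 2% of values at either end. The number of arrays limits the precision.

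Probe sets naming 1 gene (41097) were named from the platform annotation; those naming several (1801) or none (11777) were left out. To each signal 10 was added and log2 taken. Probe sets were kept where 2 or more arrays exceeded 59.98 (the median signal), and each gene was read from the one of highest mean, giving 14162 genes. Fold changes include the added 10. All arrays were fitted in 1 model of 4 groups with limma 3.58.1 (lmFit, eBayes with trend) in R 4.3.3, with data.table (version 1.17.8), 4 residual and 5.37 prior degrees of freedom, and Benjamini-Hochberg adjustment over all genes at 0.05. Sums and figures used Python 3.11.15, pandas 2.3.3 and matplotlib 3.10.9.

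The shRNA arrays share a title suffix in pairs, and the deviations of paired arrays from their group means correlated (r = 0.323 over all genes), so a fit with this replicate block is given beside the results it changes. Drug-arm arrays share a number alone (r = -0.0115). On simulated data of 14162 genes, 43.4% of true 2-fold and 76.6% of true 4-fold changes were called in the drug contrast, and 42.8% and 75.2% in the shRNA contrast. The simulation changed a small share of the genes, alike in both contrasts. Its noise was independent between arrays, without a pair effect, so these rates need not hold for the real contrasts.

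The genes, the neighbouring lists and the tests were chosen with earlier results of these data known. Genes were given array by array where they passed in any contrast or, with PRMT5 shRNA, with the block. Alternatives were the added constant, the filter, the scaling, the choice of probe set, each arm alone, the block, the prior and leaving out each array. Promoter sequences are from RefSeq (GRCh38.p14), and SLC16A1 and PFKFB2 had no entry.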

Additional observations from a re-analysis of the deposited data

How the results depend on the processing

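Leaving out 1 array at a time, 0 to 2 of the 30 genes passed with CEP701 and their median log2 difference was -0.13 to -0.025; 0 to 4 passed with PRMT5 shRNA, with a median of -0.69 to -0.45; 0 to 4 passed for the difference of the effects, with a median of 0.33 to 0.52; and 9 to 17 passed with scramble against DMSO, with a median of 0.17 to 0.41. The number passing with CEP701 was 0 with no filter, 1 with quantile normalization, 5 with poly-A control scaling, 0 with the mean of a gene's probe sets, 7 in the drug arm alone, 7 with the replicate block in the shRNA arm, 7 with it in both arms, and 0 with limma's prior without a trend, against 2 as reported (2 higher and 6 lower at an unadjusted p under 0.05). With PRMT5 shRNA it was 6 with quantile normalization, 1 with poly-A control scaling, 4 with the mean of probe sets, 0 in the shRNA arm alone, 14 with the replicate block in that arm, 13 with it in both arms and 0 without the trend, against 2 (0 higher and 19 lower unadjusted). For the difference of the effects it was 1 with median scaling, 0 with poly-A control scaling, 10 with the replicate block in the shRNA arm or both, and 0 without the trend, against 2 (11 higher and 0 lower unadjusted). With scramble against DMSO it was 10 with poly-A control scaling, against 16. The causes of these changes were not tested.

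The median over the 30 genes with CEP701 was -0.22 with median scaling and -0.54 with poly-A control scaling. With PRMT5 shRNA it was -0.59 with quantile normalization, -0.52 with median scaling and -0.52 with poly-A control scaling. For the difference of the effects it was 0.44 with the filter on all 8 arrays, 0.28 with median scaling, -0.059 with poly-A control scaling and 0.40 with the mean of probe sets. With scramble against DMSO it was 0.30 with an added constant of 1, 0.33 with no filter, 0.38 with quantile normalization, -0.072 with median scaling, -0.092 with poly-A control scaling and 0.19 with the mean of probe sets. ALDOA turned to -0.0050 and -0.059 in that comparison under the 2 scalings. Relative to the median of all genes under the same setting, the medians of the 30 genes ranged from -0.19 to -0.11 with CEP701 and from -0.60 to -0.55 with PRMT5 shRNA over the settings with all arrays. Each arm alone could not be fitted for the comparisons across arms. Over all genes, 819 passed with CEP701 (6 without CEP701 array 1, 3208 in the drug arm alone), 21 with PRMT5 shRNA (0 in its arm alone, 247 with the block), 203 for the difference (0 without either CEP701 or either DMSO array, 2456 with the block) and 6486 with scramble against DMSO (4520 without DMSO array 2, 7800 with the block).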
